A study of Mus musculus with 11 samples.

Results

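Neutrophil transcripts and the chemokines that draw neutrophils into tissue were followed across mouse aortic valves after a wire injury or a sham operation. The set was chosen by gene symbol and holds 10 genes of the 46983 in the count table, namely S100a8, S100a9, Csf3r, Cxcr2, Retnlg, Cxcl1, Cxcl2, Cxcl5, Il1b and Csf3. All 10 were found, each with 1 Ensembl identifier. Whole valves of wild type mice were taken 48 hours after surgery, 1 mouse to a library. Injury was made with a wire that damaged the valve endothelium of the living mouse, and sham mice had a control operation. The young groups were 3 to 4 months of age, with 3 sham and 3 injured libraries. The aging groups were 16 to 18 months of age, with 3 sham and 2 injured libraries. All groups were wild type and had surgery, and the strain is not given in the sources used here.

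Neutrophils are short-lived granulocytes that leave the blood early in sterile injury. Damaged tissue, resident macrophages and activated endothelium release CXC chemokines of the kind that carry a glutamate-leucine-arginine motif. In the mouse these include Cxcl1, Cxcl2 and Cxcl5, which bind the receptor Cxcr2 on neutrophils. Interleukin-1 beta, the product of Il1b, induces these chemokines in stromal and endothelial cells, and granulocyte colony-stimulating factor, the product of Csf3, acts through the receptor Csf3r to release neutrophils from the marrow. S100a8 and S100a9 encode the subunits of calprotectin, the most abundant protein of neutrophil cytosol, and Retnlg encodes a resistin-like protein of mouse neutrophils.

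Values are given as CPM, the deposited counts scaled to library size with edgeR's TMM factors. Totals ran from 27124000 to 36353474 counts, so that 3 counts, the bound used where a gene had 0, equalled 0.0810 to 0.118 CPM. Young sham 1 and both aging injured libraries had counts for 18641 to 19015 genes and the other 8 for 20411 to 22533. Genes with at least 20 counts in 1 library and 0 in all others numbered 16 in young sham 1, 9 in aging injured 1, 14 in aging injured 2 and 0 in each of the other 8. All 8 markers of valve interstitial cells and fibroblasts and all 8 endothelial markers were counted in every library. The 10 cardiomyocyte markers were too, at a summed 6697 to 33740 CPM. Because the valves were measured in bulk, fewer cells of a type and less RNA per cell cannot be told apart.

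The stretches of DNA just before the start sites of the paired members are shown because the values below compare the members of each pair. Cxcl1 and Cxcl2 lie 10.8 kb apart on chromosome 5, and S100a8 and S100a9 lie 22.6 kb apart on chromosome 3 and point toward each other on opposite strands. The sequences are the 120 bases before each start, 5′ to 3′ on the gene's strand, from RefSeq on GRCm38.p6, at chr5:90891125-90891244 (plus strand), chr5:90903779-90903898 (plus), chr3:90668951-90669070 (plus) and chr3:90695722-90695841 (minus). Capitals mark matches on either strand to a form of the NF-kB site (GGG, any 2 bases, TTTCC) or to TATAAA, and no matches overlapped.
Cxcl1: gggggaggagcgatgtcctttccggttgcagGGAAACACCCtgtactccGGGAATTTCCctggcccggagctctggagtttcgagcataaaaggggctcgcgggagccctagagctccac
Cxcl2: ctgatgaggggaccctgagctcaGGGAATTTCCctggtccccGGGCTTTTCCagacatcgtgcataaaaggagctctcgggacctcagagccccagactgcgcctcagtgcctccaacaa
S100a8: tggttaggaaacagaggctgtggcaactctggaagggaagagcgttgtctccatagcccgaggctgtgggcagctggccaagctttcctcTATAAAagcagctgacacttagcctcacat
S100a9: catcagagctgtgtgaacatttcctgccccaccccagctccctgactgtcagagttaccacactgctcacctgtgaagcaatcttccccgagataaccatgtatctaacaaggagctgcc

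The promoter table held 8 of the 10 members, all but Cxcl5 and Csf3. In the 250 bases before the start, Cxcl1 and Cxcl2 each held 2 matches to the NF-kB form, and the other 6 members held 0. A match was present in 1.41% of the 32851 promoters of the table over the same length. TATAAA was found in S100a8 and Il1b, against 12.4% of all promoters. TTGCNNAA, a form of the C/EBP site searched on both strands, was found in S100a9 and Retnlg outside the stretch shown, against 9.56% of all promoters. These are matches of letters and no binding was measured.

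Transcripts of the 10 genes were scarce in these valves. Summed over the 10 genes, they came to 36.7 CPM in young injured 2 and to 5.77 to 10.01 CPM in each of the other 10 libraries, so that young injured 2 stood 3.67 times above the next. That library had the highest value for S100a8, S100a9, Csf3r, Cxcr2, Cxcl5 and Il1b, 6 of the 8 members that were tested. Of all genes tested, 10.6% were highest in it. Young injured 1 and young injured 3 had sums of 7.46 and 9.34 CPM, inside the range of the 6 sham libraries. Results on injury in young valves, the average over age and the interaction are therefore given with and without young injured 2.

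The deposited RPKM values, which allow levels of different genes to be set side by side per length, list 6 of the members. In young injured 2 the RPKM levels of Il1b, S100a9, S100a8 and Csf3r were close together, at 4.60, 4.45, 4.28 and 4.00, followed by Cxcl5 at 3.01 and Cxcl1 at 1.86. Over the other 10 libraries the median RPKM was 1.06 for Cxcl1, 1.02 for Csf3r, 0.652 for Il1b, 0.539 for S100a9, 0.385 for Cxcl5 and 0.189 for S100a8. Neighbours in that second order had overlapping ranges across these 10 libraries. For S100a8 5 libraries and for S100a9 3 stood at 0.133, the repeated lowest value of that table.

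**Figure D1:**
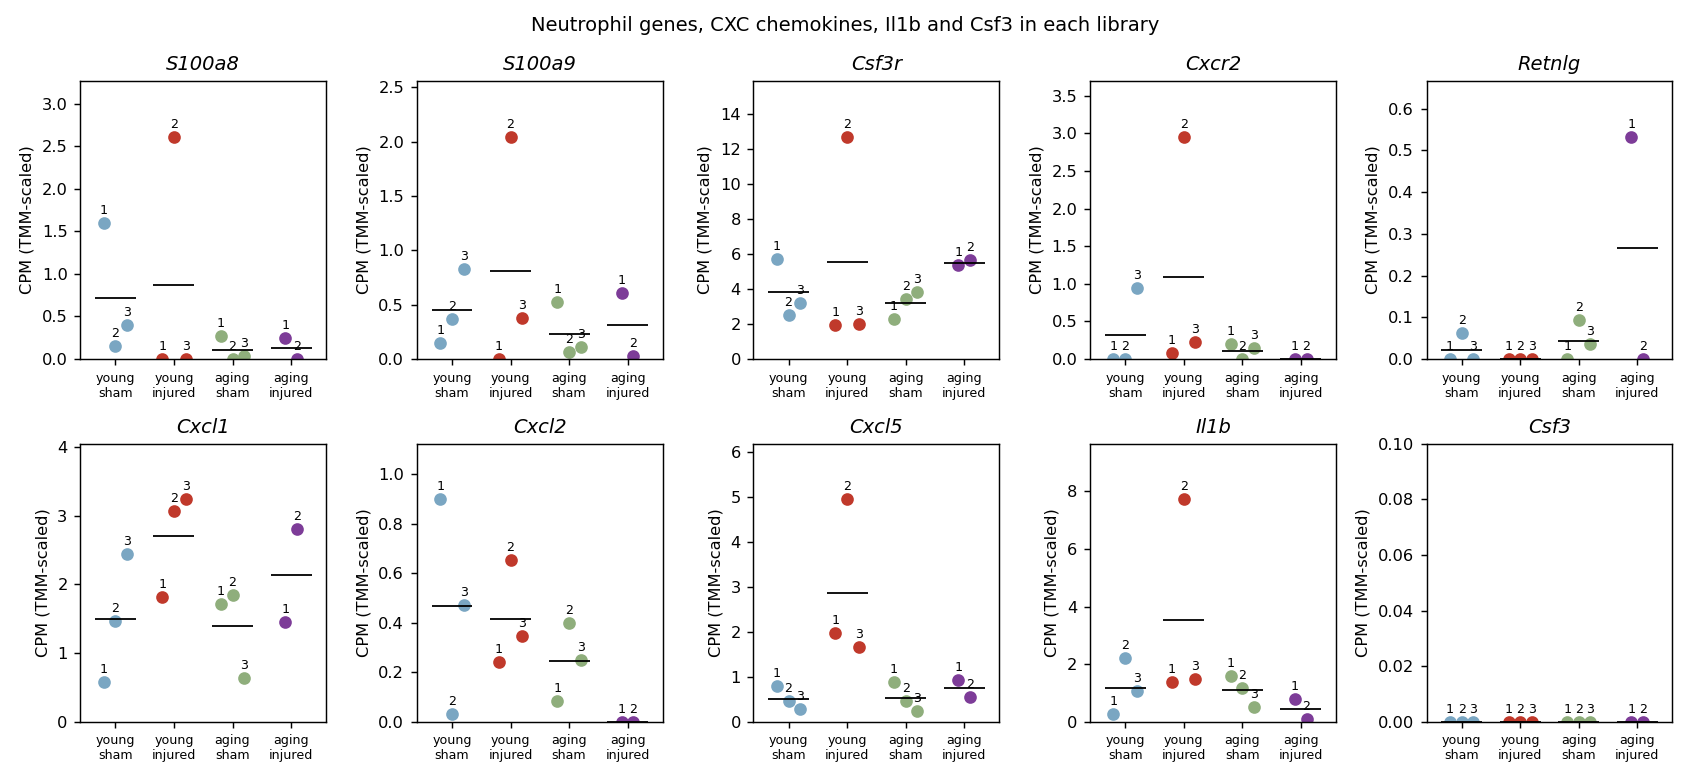
TMM-scaled CPM (y axis, from 0, a separate scale for each gene) of the 10 genes in every library, by group (x axis); each point is 1 library with its replicate number and the line is the group mean. Young injured 2 stands highest for S100a8, S100a9, Csf3r, Cxcr2, Cxcl5 and Il1b, and Csf3 has 0 counts in all 11 libraries.

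The first comparison asked how injury acted in young valves. Called genes had more than a 2-fold difference and an adjusted p (Benjamini-Hochberg) under 0.1 in edgeR's quasi-likelihood test of 19366 genes. Of the 10 members, 8 passed the filter on low counts and were tested, and 0 were called by edgeR and 0 by limma-voom, against 0.418% of all genes tested by edgeR. DESeq2 called 1, Cxcl5, as higher, against 1.15% of all genes called higher by that tool. At an unadjusted p under 0.05, edgeR gave 1 of the 8, Cxcl5, against 9.19% of all genes. The log2 fold change was above 0 for 7 of the 8, against 51.5% of all genes, and for 3 of the 7 still tested without young injured 2, against 49.9%. In that fit 2 of the 7, Cxcl5 and S100a8, had an unadjusted p under 0.05, against 5.73% of all genes, and 0 were called.

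Among the chemokine ligands, Cxcl5 (ENSMUSG00000029371, chromosome 5, 90759360 to 90761624 in mm10) showed the clearest difference. It stood at 0.783, 0.460 and 0.276 CPM in young sham 1, 2 and 3 and at 1.97, 4.94 and 1.67 CPM in young injured 1, 2 and 3. Every injured value was above every sham value, an arrangement that 9.54% of all tested genes showed in that direction. The opposite arrangement, found in 5.07% of all genes, was shown by 0 members. The group means were 0.506 ± 0.257 and 2.86 ± 1.81 CPM (SD, n = 3 each), and 49 counts stood against 300. The edgeR log2 fold change was 2.48 ± 0.70 (SE), or 5.58-fold, with an adjusted p of 0.22, so Cxcl5 was not called. DESeq2 gave 2.47 with an adjusted p of 0.0174, and over all alternatives the adjusted p ran from 0.0174 to 0.834. Without young injured 2 the log2 fold change was 1.81 ± 0.78 with an adjusted p of 0.834.

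Cxcl1 (chromosome 5, 90891241 to 90893115) was counted in all 11 libraries. Its values were 0.580, 1.47 and 2.44 CPM in young sham 1, 2 and 3 and 1.81, 3.07 and 3.24 CPM in young injured 1, 2 and 3. The groups overlapped, since young sham 3 was above young injured 1. In edgeR the difference was 0.86 ± 0.60 (log2, SE) with all libraries and 0.75 ± 0.70 without young injured 2, with adjusted p-values of 0.737 and 1.

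Its neighbour Cxcl2 (90903871 to 90905938) was counted less. It stood at 0.899, 0.0307 and 0.473 CPM in young sham and at 0.243, 0.653 and 0.346 CPM in young injured 1, 2 and 3. The highest and the lowest values were both in sham valves, and young sham 1, the library with fewer detected genes, held the highest. Injured over sham came to -0.18 ± 1.12 on the log2 scale (SE, edgeR adjusted p = 0.987), and 44 counts in sham stood against 43 in injured libraries. The promoters of Cxcl1 and Cxcl2, printed above, share GGGAATTTCC. Of the young libraries, young sham 1 held the lowest Cxcl1 level, with 20 counts, and the highest Cxcl2 level, with 31 counts. Whether these genes vary together, and any part of the site in it, was not tested.

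Il1b (ENSMUSG00000027398, chromosome 2, 129364570 to 129371139) encodes the cytokine upstream of these ligands. Young sham 1, 2 and 3 had 0.261, 2.21 and 1.06 CPM and young injured 1, 2 and 3 had 1.38, 7.73 and 1.48 CPM. Young sham 2 was above young injured 1 and 3, so the groups overlapped. The log2 fold change of 1.58 ± 0.97 (SE, edgeR adjusted p = 0.685) became 0.27 ± 1.01 (adjusted p = 1) without young injured 2. Csf3 (chromosome 11, 98701263 to 98703629) had 0 counts in all 11 libraries, which allows a level of up to 0.00843 CPM over the libraries together, counting error only.

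Both receptors had their highest value in young injured 2. Csf3r (chromosome 4, 126024550 to 126044440), the most counted member, stood at 5.74, 2.55 and 3.19 CPM in young sham and at 1.97, 12.7 and 2.01 CPM in young injured 1, 2 and 3. Young injured 1 and 3 were below every sham value of their age and young injured 2 above all. The direction therefore rested on that library, with a log2 fold change of 0.54 ± 0.65 (SE, edgeR adjusted p = 0.876) with it and -0.96 ± 0.43 (adjusted p = 0.877) without it. Cxcr2 (chromosome 1, 74153989 to 74161246), the receptor of the 3 chemokines, had 0, 0 and 24 counts in young sham 1, 2 and 3. It had 3, 104 and 7 counts in young injured 1, 2 and 3. In CPM the highest sham value was 0.946 and the injured values were 0.0810, 2.96 and 0.220. Its log2 fold change was 1.80 ± 1.88 (SE, edgeR adjusted p = 0.85), and without young injured 2 the gene did not pass the filter.

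Of the neutrophil products, S100a8 (ENSMUSG00000056054, chromosome 3, 90668978 to 90670035) had 55, 5 and 10 counts in young sham 1, 2 and 3. It had 0, 92 and 0 counts in young injured 1, 2 and 3. Its injured group thus held both the highest value of the study, 2.61 CPM, and values of 0. The log2 fold change was 0.28 ± 1.88 (SE, edgeR adjusted p = 0.988). Without young injured 2, S100a8 was at least 17.4-fold lower in injured than in sham valves, by a bound of 3 counts over the group. Without young sham 1 as well, it was at least 5.94-fold lower. These bounds cover counting error only, not the spread between mice.

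S100a9 (ENSMUSG00000056071, chromosome 3, 90692632 to 90695721) had 5, 12 and 21 counts in young sham 1, 2 and 3 and 0, 72 and 12 in young injured 1, 2 and 3. In CPM these were 0.145, 0.368 and 0.828 against 0, 2.05 and 0.377. Again the injured values lay on both sides of the sham values. The log2 fold change of 0.86 ± 1.51 (SE, edgeR adjusted p = 0.925) turned to -1.24 ± 1.73 (adjusted p = 1) without young injured 2.

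The products of S100a8 and S100a9 form 1 complex, and their counts can be read against each other in each library. In young injured 2 there were 92 and 72 counts of S100a8 and S100a9, and in young sham 1 there were 55 and 5. In the other 9 libraries S100a8 did not exceed S100a9. Of these libraries, young sham 1 is also 1 of the 3 with fewer detected genes. The part of that property in the S100a8 value was not tested.

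**Figure D2:**
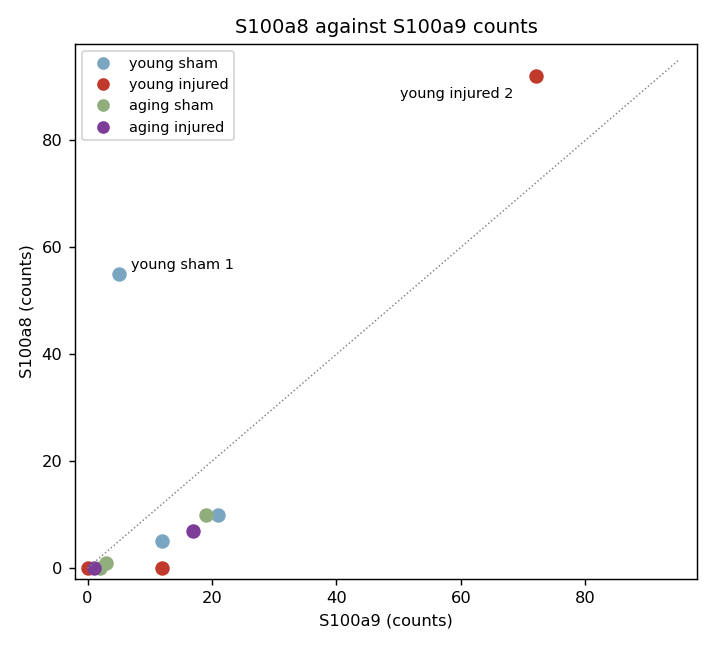
Counts of S100a8 (y axis) against S100a9 (x axis), 1 point per library coloured by group, with a dotted line of equal counts. Young injured 2, at 92 and 72, and young sham 1, at 55 and 5, are named, and the other 9 libraries lie at or below the line.

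Retnlg (chromosome 16, 48872608 to 48874498) did not pass the filter, with 21 counts over the 11 libraries. Of these, 15 were in aging injured 1 and 0 were in the 3 young injured libraries, young injured 2 included. The mean difference between injured and sham valves within age was 0.102 CPM, with p = 0.55 in an exact two-sided permutation test over 5 injured and 6 sham libraries, adjusted p = 1 over the 2 untested members. Without aging injured 1 the difference was -0.03 CPM.

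In aging valves 0 of the 8 tested members were called by edgeR, 0 by DESeq2 and 0 by limma-voom, and 0% of all genes tested were called by edgeR. At an unadjusted p under 0.05 edgeR gave 1 of the 8, Cxcl2, against 8.83% of all genes. The log2 fold change was above 0 for 5 of the 8, against 48.6%. Cxcl2 had 3, 13 and 7 counts in aging sham 1, 2 and 3 and 0 in both aging injured libraries. It was thus at least 4.94-fold lower after injury, by a bound of 3 counts over the group. That bound covers counting error only, not the spread between mice. In edgeR the unadjusted p was 0.0154 and the adjusted p 0.442. An arrangement with every injured value below every sham value was shown by 16.7% of all tested genes. Both aging injured libraries are among the 3 with fewer detected genes, and the part of this in a count of 0 was not tested.

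Cxcr2 likewise had 0 counts in both aging injured libraries, against 7, 0 and 4 in aging sham 1, 2 and 3, so the groups overlapped. By the same bound, for counting error only, it was at least 2.36-fold lower (edgeR adjusted p = 0.757). Csf3r, the other receptor of the set, went the other way in level. Csf3r stood at 2.29, 3.46 and 3.82 CPM in aging sham and at 5.40 and 5.64 CPM in aging injured 1 and 2. Both injured values were above every sham value, as for 11.1% of all tested genes, and the log2 fold change was 0.79 ± 0.72 (SE, edgeR adjusted p = 0.83). Young sham 1, the third library with fewer detected genes, had a like Csf3r level of 5.74 CPM.

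For Cxcl1, Cxcl5 and Il1b the values of injured and sham aging valves overlapped. Cxcl1 was at 1.71, 1.85 and 0.637 CPM in aging sham and at 1.46 and 2.81 CPM in aging injured libraries, a log2 fold change of 0.60 ± 0.66 (SE). Cxcl5 was at 0.884, 0.463 and 0.248 against 0.923 and 0.555 CPM, or 0.46 ± 0.75 on the log2 scale. For Il1b the values were 1.60, 1.17 and 0.495 against 0.781 and 0.0877 CPM, or -1.34 ± 1.15. The edgeR adjusted p-values of these 3 genes were 0.871, 0.936 and 0.813.

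S100a8 had 10, 0 and 1 counts in aging sham 1, 2 and 3 and 7 and 0 in aging injured 1 and 2. S100a9 had 19, 2 and 3 counts against 17 and 1. Within each group 1 library held most of the counts of both genes, aging sham 1 and aging injured 1. The log2 fold changes were 0.18 ± 2.35 and 0.42 ± 1.72 (SE, edgeR adjusted p = 0.994 and 0.979).

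**Figure D3:**
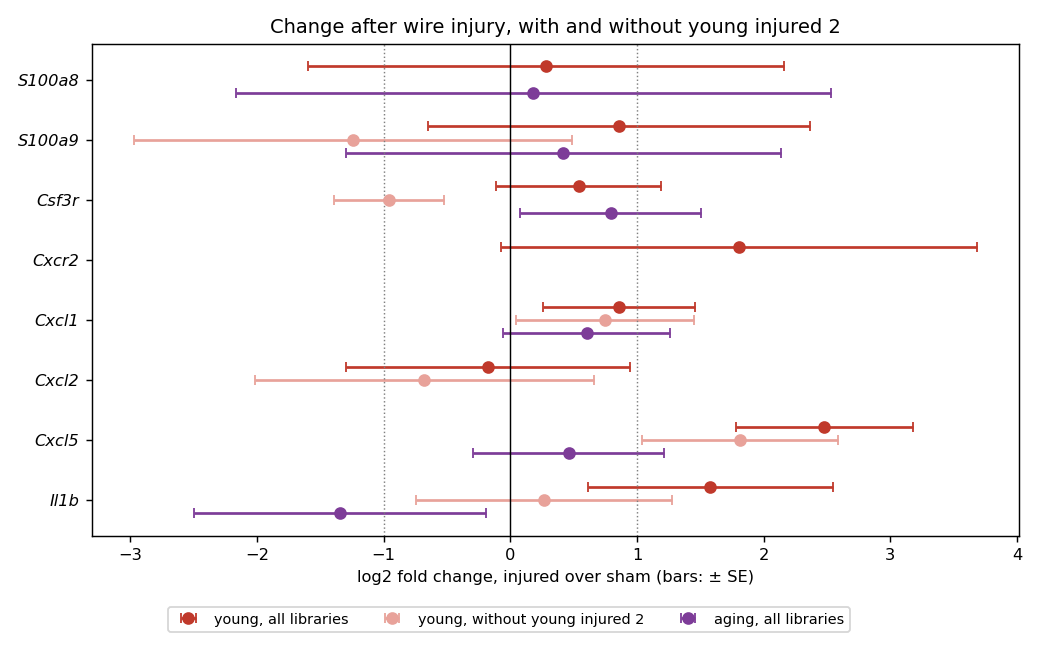
Log2 fold change of injured over sham (x axis, bars ± SE, dotted lines at the 2-fold threshold) for each tested member (y axis), in young valves with all libraries, in young valves without young injured 2, and in aging valves. Members with 0 counts in a whole group or not tested are left out, and the young values of S100a9 and Csf3r change sign without young injured 2.

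Whether injury acted differently with age was tested by the interaction, aging minus young. None of the 8 tested members was called by edgeR, DESeq2 or limma-voom, and edgeR called 0% of all genes tested. Below an unadjusted p of 0.05, edgeR gave 1 of the 8, Cxcl2, against 7.86% of all genes, and DESeq2 gave 2. The edgeR adjusted p of Cxcl2 was 0.595. The interaction was above 0 for 1 of the 8, against 45.7%. With young injured 2 left out it was above 0 for 3 of 7, against 48%, and 2 of 7, S100a8 and Csf3r, had an unadjusted p under 0.05, against 5.89%. Cxcl5, higher after injury by 2.48 in young and 0.46 in aging valves on the log2 scale, had an interaction of -2.02 ± 1.04 (SE, edgeR adjusted p = 0.693). The interaction of Il1b was -2.92 ± 1.51 (adjusted p = 0.699). Without young injured 2 these were -1.34 ± 1.12 and -1.59 ± 1.46, and Csf3r stood at 1.76 ± 0.60 (adjusted p = 0.949, 0.952 and 0.774).

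Averaged over age, with 5 injured and 6 sham libraries, 0 of 8 members were called by edgeR, DESeq2 or limma-voom, against 0.594% of all genes by edgeR. At an unadjusted p under 0.05 edgeR gave 2, Cxcl5 and Cxcl2, against 11.5% of all genes. Differences were above 0 for 6 of the 8, against 47.8%. Leaving out young injured 2, they were above 0 for 2 of 7, Cxcl1 and Cxcl5, against 47.6%. In that fit 1 of 7, Cxcl2, had an unadjusted p under 0.05, against 8.93%, and 0 were called. The averaged log2 fold change of Cxcl5 was 1.47 ± 0.51 (SE, edgeR adjusted p = 0.291), that of Cxcl1 0.73 ± 0.45 (adjusted p = 0.587) and that of Csf3r 0.67 ± 0.48 (adjusted p = 0.665). Without young injured 2 these were 1.14 ± 0.55, 0.68 ± 0.50 and -0.08 ± 0.30 (adjusted p = 0.593, 0.788 and 0.98).

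Age in sham valves, the comparison without injury, called 0 of 8 members by edgeR, DESeq2 or limma-voom, against 0.0258% of all genes by edgeR. None of the 8 had an unadjusted edgeR p under 0.05, against 9.19% of all genes. Aging over young was above 0 on the log2 scale for 1 of the 8, against 52.3%. Young and aging sham values overlapped for all 8, where 11.8% of all genes lay wholly higher and 9.08% wholly lower in aging valves. Cxcl1 and Cxcl5 stood at 1.499 ± 0.93 and 0.506 ± 0.257 CPM in young sham and at 1.40 ± 0.66 and 0.531 ± 0.324 CPM in aging sham valves (SD, n = 3 each). Il1b was at 1.18 ± 0.98 and 1.09 ± 0.56 CPM. S100a8 had 70 counts over young sham and 11 over aging sham libraries, and 55 of the 70 were in young sham 1 (log2 fold change -2.71 ± 2.07, SE, edgeR adjusted p = 0.736).

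Other neutrophil genes were read from lists chosen by function. Of 12 granule protein genes, 6 were tested in young valves and 0 called by edgeR. The log2 fold change was above 0 for 4 of the 6, against 51.5% of all genes, with a median of 1.18, against 0.0126 for all genes. An unadjusted p under 0.05 was found for 4 of the 6, of which 1 was lower after injury, against 9.19% of all genes. Without young injured 2 these were 3 of 5 above 0, a median of 0.40 and 1 of 5 under 0.05, against 5.73% of all genes. Lcn2, an iron-sequestering protein of granules also made by stromal cells, had 158, 186 and 131 counts in young sham and 92, 1414 and 494 in young injured 1, 2 and 3, a log2 fold change of 1.91 ± 0.68 (SE, edgeR adjusted p = 0.386). Chil3, a chitinase-like protein of neutrophils and macrophages, had 33, 1 and 25 counts against 46, 398 and 16, or 2.73 ± 1.20 (adjusted p = 0.521). Mmp8, neutrophil collagenase, had 0, 1 and 0 counts against 1, 12 and 12. It reached the minimum count of 10 only in young injured libraries, so its direction and p were not independent of the filter. The lower gene was Mmp9, a gelatinase of neutrophils and other cells, with 155, 123 and 154 counts against 39, 127 and 74, or -1.04 ± 0.46 (adjusted p = 0.523). Pglyrp1, a peptidoglycan-binding granule protein, was also lower, at 1.23 ± 0.49 against 0.843 ± 0.302 CPM (SD, n = 3 each). Mmp9 and Pglyrp1 are named here, after their values were seen, to give both directions.

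Several granule genes were at or near 0 counts in most libraries. Mpo, Elane, Ctsg, Camp and Ngp had 0 counts in young injured 2, and Mpo, Elane, Ctsg and Ngp had a median of 0 over the other 10 libraries too. Elane and Ngp, an elastase and a granule peptide, had 40 and 33 counts in aging injured 2, where S100a8 had 0 and S100a9 had 1. Ly6g, the antigen by which mouse neutrophils are sorted, had 21 counts in young sham 1 and 0 in each of the other 10 libraries. Ly6g and Elane are thus among the genes with at least 20 counts in 1 library and 0 in all others. Both libraries are among those with fewer detected genes, and the part of this in these counts was not tested. These genes were singled out after their values were seen.

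Of 20 surface and other neutrophil markers 16 were tested and 0 called by edgeR in young valves, 7 had an unadjusted p under 0.05, against 9.19% of all genes, and the median log2 fold change was 0.86 with 12 of 16 above 0. Without young injured 2 these were 1 of 15, against 5.73% of all genes, a median of 0.44 and 10 above 0. Trem3, named after its values were seen, had 22 counts in young injured, 2 in aging injured and 0 in both sham groups. It thus passed the filter only through the young injured group, and its direction was not independent of the filter. The integrin chains Itgb2 and Itgam, which macrophages share, stood at 0.88 ± 0.25 and 0.84 ± 0.28 on the log2 scale (SE, edgeR adjusted p = 0.222 and 0.329). The formyl peptide receptor gene Fpr1 had 0 counts in all 3 young sham libraries and 0, 24 and 3 in young injured 1, 2 and 3. Il1r2, the decoy receptor of interleukin-1, had 135 counts in young injured 2 and Cd177 had 31, and the highest counts elsewhere were 13 and 4; both were picked after their values were seen. In aging valves 0 granule and 0 surface genes were called by edgeR, 1 gene of each list had an unadjusted p under 0.05, against 8.83% of all genes, and the medians were 0.51 and 0.21, against -0.01 for all genes.

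Of 5 oxidase subunit genes, all tested, 5 were above 0 on the log2 scale in young valves (median 0.34), and 3 without young injured 2 (median 0.05). Of all genes, 51.5% and 49.9% were above 0 with and without that library. Ncf1 stood at 0.65 ± 0.31, Cyba at 0.35 ± 0.20 and Cybb, the catalytic subunit, at 0.12 ± 0.26 (SE). Of 12 further CXC chemokines 10 were tested and 8 were above 0, with a median of 0.37, against 5 of 9 and 0.16 without young injured 2. Cxcl12, a homeostatic ligand of Cxcr4, stood at 0.37 ± 0.13, Cxcl16, a ligand of Cxcr6, at 0.56 ± 0.26 and Ppbp, a platelet ligand of Cxcr2, at 2.09 ± 1.20. Of 7 further chemokine receptors, all tested, 6 were above 0 with a median of 0.34, against 5 and 0.31 without that library. The scavenging receptors Ackr2, Ackr1 and Ackr3 stood at 0.73 ± 0.48, -0.38 ± 0.64 and 0.09 ± 0.21, and Cxcr4 at 0.35 ± 0.35. The edgeR adjusted p-values of these genes ran from 0.371 for Cxcl12 to 0.955 for Ackr3.

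Of 12 interleukin-1 pathway genes, all tested, 11 were above 0 in young valves with a median of 0.28, against 7 and 0.14 without young injured 2. Over all genes 51.5% were above 0 with that library and 49.9% without it. Il1r1, the signalling receptor of interleukin-1, had an edgeR adjusted p of 0.0615 at 0.61 ± 0.11 on the log2 scale (SE), under the 2-fold threshold. The alarmin Il33 stood at 0.59 ± 0.23 and the adaptor Myd88 at 0.38 ± 0.18 (adjusted p = 0.437 and 0.572). Of 12 upstream cytokines and NF-kB targets 9 were tested and 7 were above 0, with a median of 0.65, against 6 of 9 and 0.33 without young injured 2. Nfkbiz, a nuclear regulator of NF-kB, stood at 0.59 ± 0.21, Socs3, a feedback inhibitor, at 0.94 ± 0.35, the receptor chain Il17ra at 0.65 ± 0.31 and Csf1, the macrophage growth factor, at -0.05 ± 0.13 (adjusted p = 0.379, 0.415, 0.569 and 0.958).

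Of 7 leukocyte adhesion genes, all tested, 7 were above 0 in young valves, against 51.5% of all genes, and 5 without young injured 2, against 49.9%. The median log2 fold change was 1.07 with that library and 0.54 without it. P-selectin (Selp) stood at 1.66 ± 0.56, E-selectin (Sele) at 1.23 ± 0.52 and Vcam1 at 1.07 ± 0.24 (SE, edgeR adjusted p = 0.35, 0.498 and 0.119). Over these 6 lists edgeR called 0 genes in young and 0 in aging valves, against 0.418% and 0% of all genes. In young valves 9.19% of all genes had an unadjusted edgeR p under 0.05. Of the lists, it was found for 3 of 7 adhesion, 2 of 12 interleukin-1 and 2 of 9 upstream genes. It was found for 1 of 10 CXC, 0 of 7 receptor and 0 of 5 oxidase genes. Without young injured 2 it was found for 5.73% of all genes. In the same order the lists then had 1 of 7, 1 of 12, 1 of 9, 1 of 9, 0 and 0.

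In aging valves the log2 fold change was above 0 for 4 of 5 oxidase, 6 of 10 CXC and 5 of 7 receptor genes. It was above 0 for 6 of 12 interleukin-1, 7 of 9 upstream and 6 of 7 adhesion genes, against 48.6% of all genes. The named genes of the lists went both ways. Pglyrp1 stood at -2.73 ± 0.98 on the log2 scale and Lcn2 at 0.92 ± 0.73 (SE, edgeR adjusted p = 0.457 and 0.789). Mmp8 had 4, 2 and 0 counts in aging sham 1, 2 and 3 and 0 in both injured libraries. Trem1 had 13, 12 and 16 counts against 1 and 0, while the formyl peptide receptor Fpr2 had 10, 4 and 1 against 82 and 6. Itgb2 and Itgam stood at 0.55 ± 0.27 and 0.34 ± 0.31. The oxidase genes Cybb and Ncf4 stood at 0.35 ± 0.29 and 0.42 ± 0.56. Cxcl12 and Ppbp stood at 0.42 ± 0.14 and 3.02 ± 1.34, and Cxcl17 had 5, 5 and 14 counts against 0 and 0. Every injured value of Trem1 and of Cxcl17 was below every sham value, as for 16.7% of all tested genes. Both aging injured libraries are among those with fewer detected genes, and the part of this in such low counts was not tested.

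Among aging receptors, Ackr1 stood at -1.19 ± 0.76, Cxcr3 at 1.71 ± 1.14, Cxcr5 at -1.67 ± 1.60 and Ackr3 at 0.04 ± 0.24 on the log2 scale (SE). The interleukin-1 inhibitors Irak3 and Il1rn stood at -0.51 ± 0.23 and 1.45 ± 0.70, and Il1r1 at 0.21 ± 0.13. Nfkbiz, Ptgs2 and Csf1 stood at 0.54 ± 0.23, 0.98 ± 0.57 and 0.14 ± 0.14, and Il6 had 3, 4 and 3 counts against 0 and 0. The same limits hold for Il6, whose injured values also lay wholly below sham, as for 16.7% of all tested genes. The selectin ligand Selplg stood at 0.77 ± 0.30, Selp at 0.76 ± 0.61 and Vcam1 at 0.31 ± 0.27. The smallest edgeR adjusted p of the genes named in aging valves was 0.425, of Cxcl12.

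In young injured 2 some lists of markers of other cell types stood at an extreme and others inside the range of the other libraries. The 12 monocyte and macrophage markers summed to 1173 CPM there, against 628 to 1098 in the other 10 libraries, and 0 were at 0 in any library. Of the 12, 4 were highest in young injured 2, against 10.6% of all genes tested. The 6 platelet and megakaryocyte markers summed to 51.5 CPM against 26.3 to 43.8, and the 5 erythroid markers to 12.9 CPM, the lowest of all, against 15.5 to 97.6. Interstitial and fibroblast markers summed to 23870 CPM against 13540 to 19660. Cardiomyocyte markers summed to 7643 CPM in young injured 2, 9020 in young injured 1 and 33740 in young injured 3. Mast cell, mesothelial, adipocyte and endothelial markers summed to 19.0, 127, 193 and 1131 CPM in young injured 2. For these and for cardiomyocyte markers young injured 2 was inside the range of the other libraries. Of the 4 eosinophil markers 2 were at 0 in young injured 2, and Epx and Ear6 were at 0 in every library. The part of these cells in the values of S100a8, S100a9, Csf3r, Il1b and the other members was not tested.

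**Figure D4:**
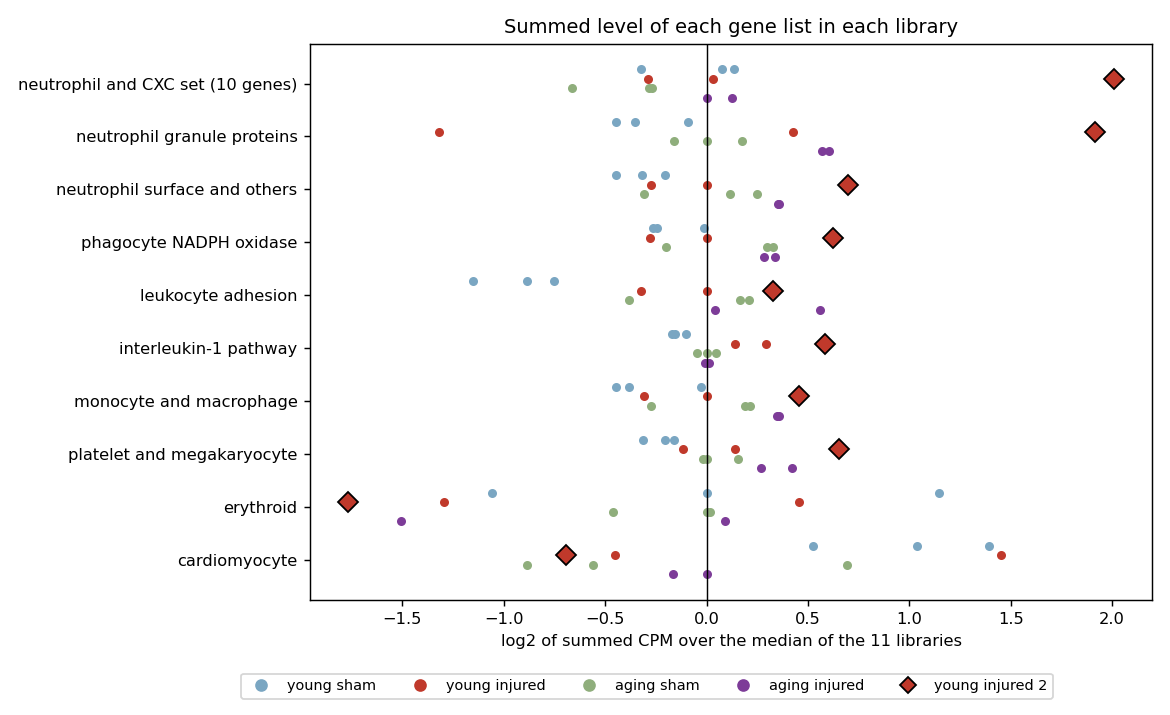
Log2 of the summed CPM of each gene list over its median across the 11 libraries (x axis) for the 10-gene set and 9 other lists (y axis), 1 point per library coloured by group, with young injured 2 as a diamond. By sum, young injured 2 is the highest library for the set, at 36.7 CPM, for the neutrophil, oxidase and interleukin-1 lists and for monocyte, macrophage and platelet markers, and the lowest for erythroid markers. Taken singly, 2 of 12 granule and 7 of 20 surface genes were highest in young injured 2, against 10.6% of all genes tested. Lcn2 at 40.2 CPM and Chil3 at 11.3 CPM made up most of its granule sum of 56.7 CPM.

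The genes most like S100a9 and Cxcl1 across the 11 libraries were found by Pearson's r of log2 CPM, as a description over libraries that share groups. The members of the set and unnamed genes (Gm, Rik and ENSMUS symbols) were left out beforehand. For S100a9 the 5 highest were Ube2n-ps1 at 0.923, Nt5e at 0.839, Adgrg2 at 0.836, BC002163 at 0.831 and Il11 at 0.828, with Spearman's rho of 0.855, 0.836, 0.8, 0.864 and 0.855. Leaving out young injured 1 and 2, the libraries farthest from the S100a9 median, r was 0.823, 0.798, 0.859, 0.809 and 0.712. For Cxcl1 they were Arsi at 0.871, Lama4 at 0.856, Slc16a6 at 0.855, Ttyh2 at 0.845 and Rad54l at 0.843, with rho of 0.855, 0.709, 0.782, 0.855 and 0.855. Without young sham 1 and aging sham 3 these were 0.707, 0.277, 0.768, 0.809 and 0.659, so the likeness of Lama4 rested on those libraries. None of the 10 was on another neutrophil or chemokine list. The members could not appear, so their likeness to S100a9 and Cxcl1 was not examined.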

How the data were processed

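Per the submitters' processing notes, TopHat2 2.1.0 and the mm10 build were used. Which program counted the reads, whether it used strand, and which annotation it read is not given in the sources used here. The authors deposited raw counts per Ensembl gene, and RPKM values for 13526 genes, per the file names without mitochondrial genes and filtered. 1 library column that matched no sample label was used in no step.

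Here the counts were filtered by filterByExpr (minimum count 10), scaled by TMM and fitted in edgeR 4.0.16 (R 4.3.3) with 4 group means over all 11 libraries, with Benjamini-Hochberg adjustment over 19366 genes. The common biological coefficient of variation was 0.377. SE is the absolute log2 fold change over the square root of F. The series' own thresholds, adjusted p under 0.1 and over 2-fold, were used. Correlations use log2 CPM with a prior count of 2. Alternatives used DESeq2 1.42.0, limma 3.58.1, no filter, no mitochondrial genes, a replicate block and left-out libraries. Library pairs of a group differed by 20.9 to 228.4 in chi-square per degree of freedom. The fits were tested on simulated data with a smaller spread than 0.377. The changed genes there had more counts than most members, so that test does not cover low-count members.

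The members and gene lists were chosen with earlier results of these data known. Named from each list, for injury in young and in aging valves, are called genes, else the 3 with the smallest p and the most abundant one; others named are said to be chosen after their values were seen. 1 gene that the rule names is not reported here. Itgam has overlapping models in the table, and the first was used. Intervals and bounds cover counting error only.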

Additional observations from a re-analysis of the deposited data

How the results depend on the processing

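Low counts limit these results: 6 of the 10 genes had 180 counts or fewer over all libraries. Of the 8 tested members, 0 were called in any comparison under any alternative, except Cxcl5 in young valves with DESeq2. Genes called over the whole table moved with the tool and library. DESeq2 called 268, 329, 402, 174 and 200 genes for injury in young valves, in aging valves, averaged, interaction and age in sham valves, against 81, 0, 115, 0 and 5. limma-voom called 73 averaged and 2 for age, the fit without a filter 1 in aging valves and 14 for age, and the young libraries alone 11. Without 1 library the counts ran from 16 (young injured 2) to 447 (young injured 3) in young valves, where they were 20, 41 and 48 without young sham 2, 1 and 3 and 48 and 53 without aging sham 2 and 3. They ran from 0 to 261 (aging injured 1) in aging valves, 38 (young injured 2) to 284 (aging injured 1) averaged, 0 to 0 for the interaction and 1 to 10 for age.

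Equal replicate numbers were not taken as pairs, since correlations of same-numbered deviations were 0.08, -0.01 and 0.25 in young and -0.03 and -0.06 in aging valves, and 3 of 6 young libraries correlated best with their own number. The replicate block gave 60 calls averaged over age against 115, S100a8 at -0.36 in aging valves and Cxcl1 at 0.086 for age.

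Directions of members turned as follows, as log2 fold changes with the cause not tested. With limma-voom, S100a8 was -2.57 in young and -0.13 in aging valves, -1.35 averaged and 2.44 for the interaction, and S100a9 was -0.73, -0.21, -0.47 and 0.52. Cxcl2 was 0.54 in young valves, Cxcr2 0.30 averaged and 0.59 for age, Il1b -0.18 averaged and 0.29 for age, and Cxcl1 0.11 for age. Leaving out 1 library, in young valves S100a8 ran from -7.54 to 1.67, S100a9 from -1.24 to 1.64, Csf3r from -0.96 to 0.96 and Cxcl2 from -0.73 to 0.73. In aging valves S100a8 ran from -4.87 to 2.59 and S100a9 from -2.86 to 1.86. Averaged, S100a8 ran from -3.67 to 1.44, S100a9 from -0.99 to 1.36, Csf3r from -0.079 to 0.88 and Il1b from -1.01 to 0.55. For the interaction S100a8 ran from -5.14 to 7.73, S100a9 from -3.73 to 1.67, Csf3r from -0.17 to 1.76 and Cxcl1 from -0.81 to 0.14. For age Csf3r ran from -0.49 to 0.15, Cxcl1 from -0.48 to 0.45, Cxcl5 from -0.51 to 0.53 and Il1b from -0.58 to 0.73. Fits to a group at 0 are no bounds. The Retnlg difference was -0.070 on the log2 scale without a filter, and ran from -0.032 to 0.23 CPM without 1 library, an alternative chosen after seeing the data. The Csf3 difference was 0 CPM throughout.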

Other observations

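Other genes of the chemokine cluster on chromosome 5 differed in level, and whether they share a pattern was not tested. Over the 11 libraries Pf4, a platelet and macrophage chemokine, had 4592 counts, Cxcl1 685, Ppbp 552, Cxcl5 448, Cxcl2 110, Cxcl3 45 and Cxcl15 1. Mean Ppbp stood at 0.730 CPM in young sham, 3.08 in young injured, 0.291 in aging sham and 2.40 CPM in aging injured valves, and Pf4 at 11.8, 10.8, 14.8 and 15.6 CPM. Of the Ppbp counts, 220 were in young injured 2 and 127 in aging injured 1. Cxcl3 was counted in 4 libraries, with 17 counts in young injured 2, 13 in young sham 3, 13 in aging injured 2 and 2 in young injured 3. These genes are shown for their place beside Cxcl1, Cxcl2 and Cxcl5.

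Il6 and Trem1, both outside the set, had most of their counts in young injured 2. Il6, an inflammatory cytokine, had 182 counts there, 38 in young injured 3, 20 in young sham 3 and at most 10 in each other library. Trem1, a receptor that amplifies neutrophil and monocyte responses, had 106 there and at most 24 elsewhere. Il6 was picked after its values were seen.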
